A study of Cricetulus griseus with 20 samples.

Results

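The 305 well expressed assembled long non-coding RNAs (lncRNAs) of Chinese hamster preadipocytes were examined across adipogenic differentiation and across a 24 h exposure to low oxygen. An assembled lncRNA is here a transcript that the authors assembled from their own reads and that carries a G number instead of an Ensembl identifier. The 305 members were the G rows with a mean abundance of 5 TPM or more over all 20 libraries (TPM is a relative abundance corrected for transcript length), out of 4295 lncRNA rows, 3786 of them G rows. Another 7 named G rows were set aside by the rule, 2 of which reached this mean. The members were thus selected on their measured mean TPM, their high level is no finding, and 28 of them would have had a mean under 5 TPM without their highest group. The lowest means inside the limit were 5.00 TPM for G795 and 5.01 TPM for G4953, and the highest outside it were 4.99 TPM for G10275 and 4.97 TPM for G15511. The cells were primary preadipocytes from the inguinal white fat of female hamsters aged 6 weeks, pooled over all animals, grown to confluence (D0) and induced with dexamethasone, insulin and IBMX. Hypoxia was 1% O2 for the last 24 h before harvest at D0, D1, D3, D7 or D11, and normoxia was 21% O2, which made 10 groups of 2 libraries. The study describes its libraries as biological replicates without saying whether the 2 of a group came from separate cultures, so the p-values speak only of the spread between libraries, which may be technical. No cell line, transgene or knockout was involved, and no sorting of differentiated from undifferentiated cells is described.

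LncRNAs are transcripts without a recognised protein product. Some act in the nucleus on chromatin or on the transcription of neighbouring genes, others in the cytoplasm on RNA stability or translation, and for many no function is known. During adipogenesis a fibroblast-like precursor switches on PPARG, the nuclear receptor that drives fat cell genes, and begins to store lipid. Low oxygen stabilises hypoxia-inducible factors (HIFs), which raise the transcription of glycolytic and angiogenic genes. None of the 305 transcripts has a known function that the sources used here give, so they are described by level, stage, oxygen effect and genomic neighbours.

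The labelled cell type and treatment were checked on mRNAs first. The summed TPM of the 5 adipocyte markers that could be matched by name, of 8 on the list (Pparg, Cd36, Fabp4, Lpl and Pnpla2), was 159 and 162 in the normoxic D0 libraries, 63.4 and 79.2 at D1, 205 and 215 at D3, 566 and 584 at D7 and 463 and 563 at D11. Within this sum the normoxic level of Cd36, a fatty acid transporter, was 60.5 and 77.8 TPM at D7 and 5.57 and 7.996 TPM at D11. Fabp4 (428 and 414 TPM at D7, 226 and 251 at D11) and Lpl (5.24 and 7.19, then 2.99 and 3.27) were also lower at D11. Pparg (68.0 and 80.5, then 221 and 294) and Pnpla2 (4.02 and 4.63, then 7.63 and 7.06) were higher. The 2 matched preadipocyte and fibroblast markers of 7, Pdgfra and Zfp521, together ranged from 5.93 to 27.9 TPM, and Pdgfra rose in hypoxia at D1 (relative log2 change 1.05) and in normoxia from D0 to D11 (1.05). Pecam1, the only endothelial marker matched of 4, ranged from 0.565 to 9.03 TPM and was called in no oxygen comparison and not from D0 to D11. In normoxia its D0 libraries held 0.575 and 0.565 TPM, those of D1 4.72 and 4.03, those of D3 5.52 and 5.47, and those of D11 0.662 and 0.793. The part of such cells in the results was not tested. No macrophage marker of 5 could be matched. Of 10 HIF targets 9 were matched, and at each of D0, D1 and D3 all 9 rose in hypoxia. Of all 10318 mRNAs, the share that rose was 0.969% at D0, 1.57% at D1 and 1.6% at D3, and the share that fell was 0.0291%, 0.291% and 0.32%. At D7, 3 of the 9 rose (Slc2a1, Ankrd37 and Gapdh), where 1.3% of all mRNAs rose and 2.39% fell. At D11 none rose (4.53% of all mRNAs) and 3 fell (Bnip3, Pgk1 and Gapdh, 8.73%). The summed TPM of the 9 was 820 and 893 in normoxia at D0 and 3120 and 3465 at D7, against 5247 and 5875 in hypoxia at D7. At D11 this sum was 8010 and 8848 in the normoxic libraries against 5232 and 5843 in the hypoxic ones. By Western blot, the paper reports more HIF-1α protein in hypoxia at every timepoint. In TPM, 3 of the 9 (Ddit4, Egln1 and Ankrd37) were higher in both hypoxic D11 libraries and 5 were lower in both, with Gapdh, Pgk1 and Bnip3 making most of the difference in the sum. The D11 libraries thus did not show the rise of all HIF targets seen at D0 to D3. Every oxygen comparison at D11 and every normoxic stage comparison that ends at D11 holds for the labels as given. In these bulk samples fewer cells of a type and less RNA per cell cannot be told apart.

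The D11 libraries also stood apart in summed lncRNA TPM. All listed lncRNAs together made 9723 to 18073 TPM in the 16 libraries of D0 to D7, 33316 and 34288 TPM in the normoxic D11 libraries, and 84615 and 122277 TPM in the hypoxic D11 libraries. Much of this lay in the 4 lncRNAs G15991, G16140, G16043 and G15856, described below. Without them the sums were 9319 to 17996.5 TPM up to D7, 14835 and 17121 TPM in normoxia at D11, and 25953 and 26917 TPM in hypoxia at D11. Changes are given on log2(TPM + 0.1) relative to the median change of all 4295 lncRNA rows. For hypoxia against normoxia this median was -0.61 at D7 and 1.01 at D11, and between 0.03 and 0.15 at D0, D1 and D3. The corresponding mRNA medians were -0.19 at D7 and 0.51 at D11. A member rose or fell when its relative log2 change was beyond 1 with an adjusted p under 0.01 (limma, 1 fit of all 20 libraries). Since the choice of scale moves whole groups of transcripts at D7 and D11, members called in the same direction under 4 scalings (relative to the lncRNA median, unshifted, relative to the mRNA median, and after quantile normalization) are also counted. Single log2 changes on this scale understate the change of low transcripts.

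One member, G934 (transcript TU2105), was measured by the study with qRT-PCR, and its 2 primers are shown because no other designed sequence was matched to a member. Both are written 5′ to 3′.
G934 forward primer: tcaatggtggcagcagtagt
G934 reverse primer: agggaatctcaggaaccagc
G934 lies on contig RAZU01000018.1 of the CriGri-PICR assembly, positions 1045180 to 1076400 on the plus strand. A position was in hand for 94 of the 305 members, on 55 contigs, through the study's table of mRNAs within 100 kb of differential lncRNAs, of which the D11 list was at hand only in part. The median genomic span of these 94 was 829 bases, with a range of 254 to 254090 bases. An mRNA gene overlapped 4 of them (G14401, G13468, G8215 and G10865), and 22 of the 94 had an mRNA gene within 5 kb that did not overlap them. For the other 211 members no position was used, and the transcript sequences were not used here.

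The members spanned a wide range of levels, and most were present throughout. Their mean TPM had a median of 11.01 and ran from 5.00 to 6481. A mean of 50 TPM or more was reached by 42 members and of 100 TPM or more by 22, while 136 had a mean under 10 TPM. In every library, 128 of 305 members were at 5 TPM or more and 282 at 1 TPM or more, and 2 were listed at 0 in some library. The 305 members made 68.3% to 74.7% of the listed lncRNA TPM in the libraries of D0 to D7 and 88.0% to 94.5% at D11. The 8 members with the highest means were, in order, G15991, G6543, G16140, G16043, G5730, G8697, G9352 and G10594. G6543 was the most abundant member in every library of D0, D1 and D3 and in normoxia at D7, and G15991, G16140 and G16043 had their high values at D11.

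In normoxia, more members changed in the steps after D3 than in those before. From D0 to D11, 54 of 305 members rose and 78 fell, where 9.71% of all lncRNA rows rose and 10.7% fell. Under all 4 scalings 36 rose and 71 fell (5.59% and 9.57% of all rows). Of the 295 members with a mean of 5 TPM or more in the 16 libraries outside this comparison, 54 rose and 73 fell. Those 16 include the hypoxic D11 libraries, so members high only at D11 stay in this count. Relative to all lncRNA rows, 99 members (32.5%, against 22.6% of all rows) had their highest normoxic level at D0 and 120 (39.3%, against 28.1%) at D11, and 135 (44.3%, against 21.6%) had their lowest at D7. The median standard error of a change was 0.22 for members and 0.29 for the 3479 assembled rows under 5 TPM, of which 9.40% rose and 9.95% fell, and the part of this precision in the counts was not tested.

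**Figure D1:**
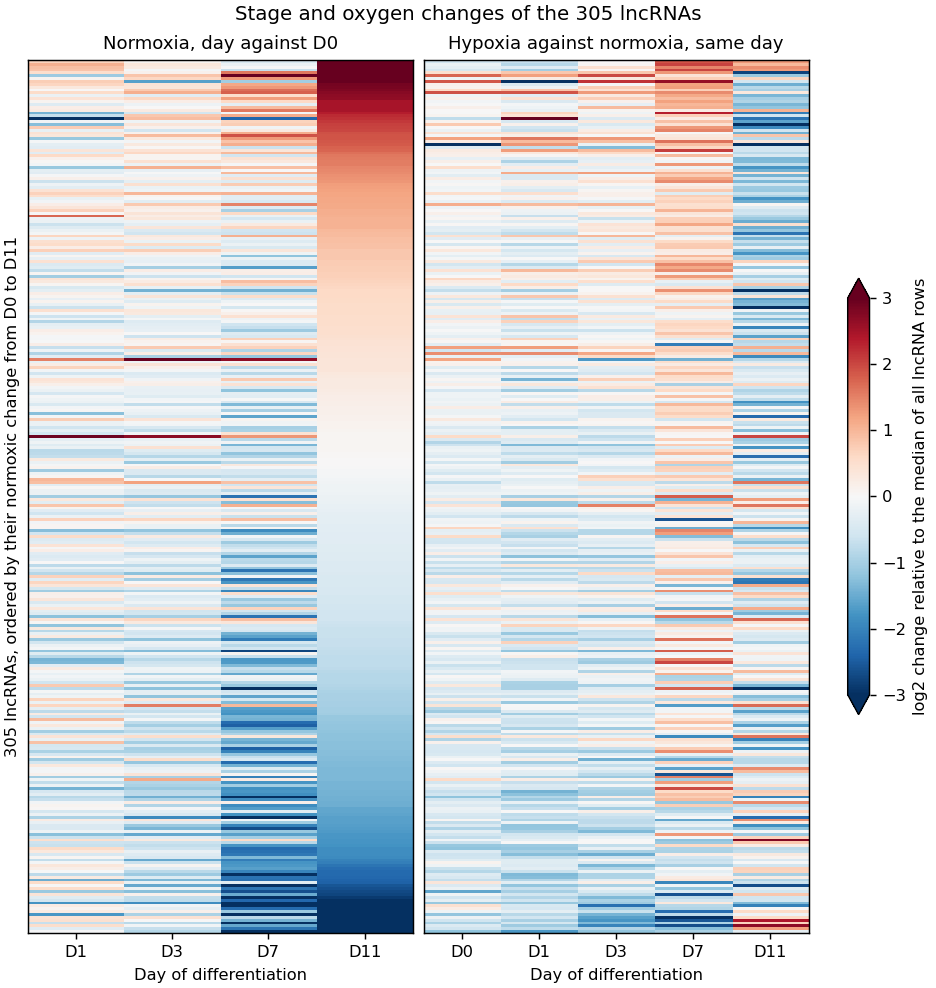
Each row is 1 of the 305 lncRNAs, ordered by its normoxic change from D0 to D11, and each column a day. Colour gives the log2 change relative to the median of all lncRNA rows, for normoxia against D0 on the left and for hypoxia against normoxia of the same day on the right (colours end at -3 and 3). The deepest stage changes stand in the D7 and D11 columns, and the right side shows more colour at D7 and D11 than at D0 to D3.

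By step, more members fell than rose in the first day after induction. From D0 to D1, 2 members rose and 18 fell (1.61% and 2.35% of all rows), 2 and 7 of them under all 4 scalings (1.42% and 1.44%). Among members with a mean of 5 TPM or more outside the compared libraries, 1 rose and 17 fell in this step, 9 and 2 in the next, and the counts of both later steps were as given for all members. The libraries outside a step include the hypoxic ones of the same days. Members high only on those days thus stay in these counts, which cannot show that the calls are free of the selection. G10254 was at 1.02 and 1.42 TPM at D0 and at 11.1 and 8.85 TPM at D1, the largest rise of this step, with a relative log2 change of 2.95 ± 0.28 (SE; adjusted p = 6.7e-05). G12741 was at 246 and 177 TPM at D0 and at 54.6 and 64.2 TPM at D1, a relative log2 change of -1.80 ± 0.19 (adjusted p = 9.5e-05). Neither pair of groups overlapped, and both calls held without any single library. G12741 (RAZU01000235.1, 7701875 to 7702245, plus strand) lies 34709 bases from Obp2a, an odorant-binding lipocalin.

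From D1 to D3, 9 members rose and 3 fell (1.3% and 0.605% of all rows), 8 and 3 under all 4 scalings (1.02% and 0.489%). G13340 was at 7.54 and 6.87 TPM at D1 and at 29.9 and 30.8 TPM at D3, a rise of 2.22 ± 0.23 (adjusted p = 5.1e-05). It had fallen in the step before, from 16.5 and 15.7 TPM at D0 (-1.14 ± 0.23, adjusted p = 0.0054), a call that was lost whichever of the 4 libraries was left out. G13819 had a like course, from 2.46 and 2.61 TPM at D0 through 1.27 and 0.923 TPM at D1 to 2.54 and 3.06 TPM at D3. G16740 took the other course, from 22.2 and 18.2 TPM at D1 to 4.26 and 5.26 TPM at D3 (-1.90 ± 0.23, adjusted p = 0.00014).

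From D3 to D7 the change was mostly downward, with 4 members risen and 46 fallen (1.49% and 2.82% of all rows), and 4 and 26 under all 4 scalings (1.49% and 1.61%). G8135 was at 22.3 and 21.2 TPM at D3 and at 1.93 and 2.40 TPM at D7, a relative log2 change of -3.36 ± 0.25 (adjusted p = 3.1e-06). It lies on RAZU01000140.1 (10719848 to 10720205, plus strand), 28431 bases from the zinc finger gene Zfp184 and 65157 bases from the histone gene Hist1h2bk. G13912 rose most, from 1.603 and 3.08 TPM to 13.1 and 15.6 TPM (2.55 ± 0.27, adjusted p = 3.9e-05). From D7 to D11, 83 members rose and 21 fell (6.22% and 4.96%), and 20 of the rises held under all 4 scalings against 21 of the falls (2.49% and 4.45%). After quantile normalization the count was 21 risen and 41 fallen, so the preponderance of rises in this step depends on the scale.

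The 4 lncRNAs G15991, G16140, G16043 and G15856 changed more than any other members at the end of differentiation. G15991 was at 46.6 and 50.7 TPM in normoxia at D0 and at 13598 and 11938 TPM at D11. G16140 went from 23.03 and 17.7 TPM to 3417 and 2293 TPM, and G16043 from 6.33 and 5.79 TPM to 2224 and 1802 TPM. G15856, the least abundant, went from 0.798 and 0.551 TPM to 215 and 162 TPM. These are ratios of mean TPM between 140 and 332, with no overlap between D0 and D11. G15856 is a member only through the libraries of D11, so its rise (relative log2 change 8.31) is given as a description, with no test. For G15991, G16140 and G16043 the relative log2 changes from D0 to D11 were 8.41 ± 0.71, 7.49 ± 0.77 and 8.72 ± 0.66 (adjusted p between 2.7e-07 and 4.6e-06, limma). These changes held without any single library and under the 4 scalings. The next largest fitted change from D7 to D11 was 4.54, for G5429, against 8.16 to 9.15 for these 4. That of G5429 was not called under all 4 scalings. Its normoxic level also swung between days, at -4.01 (D1), 0.92 (D3), -2.38 (D7) and 2.18 (D11) relative to D0 on the log2 scale.

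In hypoxia at D11 the same 4 transcripts were higher still in TPM, at 40231 and 62630 TPM for G15991, 9695 and 19050 TPM for G16140, 7929 and 12487 TPM for G16043 and 808 and 1192 TPM for G15856. Every hypoxic value was above both normoxic ones, but relative to the median shift of all lncRNAs the differences were 0.97 to 1.38 with standard errors of 0.66 to 0.77 and did not pass the test (adjusted p between 0.13 and 0.32). Together the 4 held 0.518% to 5.90% of the members' TPM up to D7, 55.2% and 63.6% in normoxia at D11, and 76.4% and 82.5% in hypoxia at D11. Without them the members' sum was 6431 to 13323 TPM up to D7, 11156 and 13136 TPM in normoxia at D11, and 18112 and 20180 TPM in hypoxia at D11.

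The 4 also deviated together within groups. In normoxia at D1 replicate 2 was 2.91 to 5.22 times as high as replicate 1 in all 4, with 231 against 44.1 TPM for G15991, and in hypoxia at D7 it was 3.19 to 8.23 times as high, with 282 against 43.7 TPM for G15991. No other member was over 2-fold higher in replicate 2 in both of these groups. Over the 20 libraries the lowest pairwise correlation of log2 TPM among the 4 was 0.991, a description of libraries that share stage and scale. The hypoxia effects at D7 (1.47 to 2.02, adjusted p between 0.069 and 0.16) did not pass. No position was in hand for any of the 4, and whether they share sequence was not tested.

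**Figure D2:**
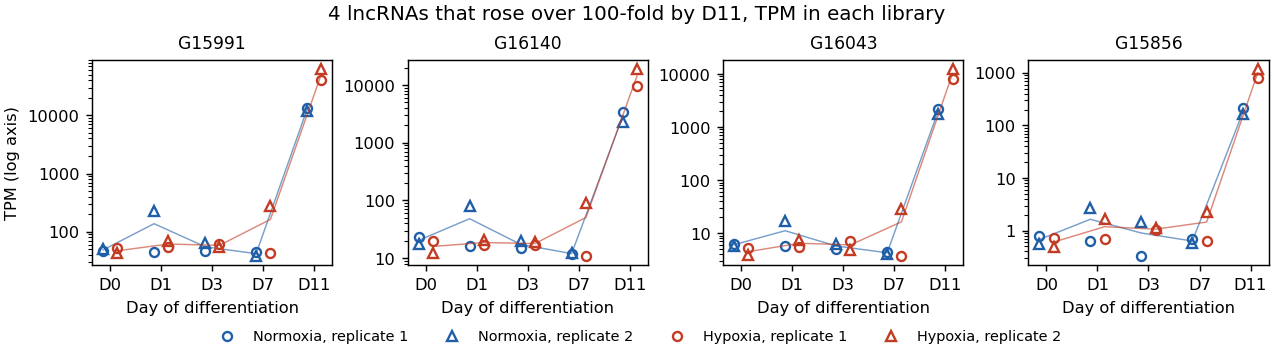
TPM of G15991, G16140, G16043 and G15856 in each of the 20 libraries (log axis) against the day of differentiation, with normoxia in blue and hypoxia in red, circles for replicate 1, triangles for replicate 2 and lines through the group means. All 4 rise between D7 and D11, and the triangles of normoxia at D1 and hypoxia at D7 lie above the circles.

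Other members rose by less. G13912 was at 1.3 and 1.42 TPM at D0 and at 19.5 and 17.8 TPM at D11 in normoxia (4.06 ± 0.27, adjusted p = 6.6e-08), with its largest step from D3 to D7. G5730, the fifth most abundant member, was at 218 and 150 TPM at D0 and at 1836 and 1890 TPM at D11 (3.74 ± 0.25, adjusted p = 7.1e-08), with a higher group mean at each later day, although only the step from D7 to D11 passed the test (2.42 ± 0.25, adjusted p = 1.2e-05) and not under all 4 scalings. G973 went from 1.04 and 2.51 TPM to 8.31 and 8.95 TPM (2.72 ± 0.30, adjusted p = 8.8e-06). G973 spans 1605411 to 1711033 on RAZU01000018.1 (minus strand) 17145 bases from Ring1, which encodes a Polycomb subunit, and 21178 bases from the histocompatibility gene H2-T23. The member G975 lies inside that span on the same strand, so reads of the 2 could have been divided between them. G8697 reached 1049 and 1276 TPM at D11 from 249 and 297 TPM at D0 (2.47 ± 0.20, adjusted p = 3.8e-07), though this rise was not called under all 4 scalings. This lncRNA lies 42588 bases from Syncrip, which encodes an RNA-binding protein.

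The members lost during differentiation included several that were abundant at the start. G8645 was at 54.4 and 42.2 TPM at D0 and at 0.816 and 1.45 TPM at D11 in normoxia (-4.95 ± 0.25, adjusted p = 4.1e-09), where the libraries labelled hypoxia at D11 held 15.9 and 14.8 TPM. G2473 fell from 14.1 and 18.9 TPM to 0.143 and 0.315 TPM (-5.31 ± 0.33, adjusted p = 2.6e-08), and G13439 from 20.6 and 14.1 TPM to 0.307 and 0.122 TPM (-5.45 ± 0.55, adjusted p = 3.6e-06). In all 3 the D0 and D11 values lay more than 10-fold apart. G13439 (RAZU01000243.1, 216306 to 216629, minus strand) has Tnfrsf12a, a TNF receptor family member, 17872 bases away. G5682, at 340 and 389 TPM at D0, was at 33.1 and 28.7 TPM at D7 and 18.5 and 13.8 TPM at D11 (-4.12 ± 0.20, adjusted p = 3.9e-09). G6543, at 3061 and 2924 TPM at D0 and 2796 and 3259 TPM at D7, was at 772 and 1053 TPM at D11 (-1.35 ± 0.26, adjusted p = 0.0010). Without the normoxic D11 replicate 1 its fall just missed the threshold (adjusted p = 0.010). Tsnax, which encodes an RNA- and DNA-binding partner of translin, is its nearest named neighbour, at 36629 bases.

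A few members hardly moved. The smallest ranges of group means over the 10 groups were those of G12164, G16065, G14170 and G16027. G12164 lay between 38.0 and 73.4 TPM in all 20 libraries, G16065 between 3.20 and 6.53 TPM, G14170 between 4.02 and 9.99 TPM and G16027 between 4.73 and 9.47 TPM. On the relative scale G14170 nevertheless passed the test at D11 in hypoxia (-1.299 ± 0.27, adjusted p = 0.0026), where its TPM values were 6.22 and 6.998 in hypoxia and 6.96 and 9.41 in normoxia, which overlap. With no shift subtracted the call was lost. Over all 305 members the median range of the group means was 2.00 on the log2 scale, and the median difference between 2 replicates 0.19.

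Hypoxia moved few members up to D3 and many at D7 and D11. Of the 305 members, 158 were called at no day, 106 at 1 day, 33 at 2, 7 at 3 and 1 at 4 of the 5 days. Of all lncRNA rows, 81.0% were called at no day, 15.6% at 1, 2.93% at 2, 0.279% at 3 and 0.186% at 4. At D0, 4 rose and 3 fell, where 0.466% of all lncRNA rows rose and 0.163% fell. At D1, 6 rose and 13 fell (0.698% and 0.675%), and at D3, 4 rose and 18 fell (0.931% and 0.978%). The median relative change of the members was -0.20 at D0, -0.36 at D1 and -0.21 at D3, against 0 for all rows by construction. Under all 4 scalings the D0 counts were 4 risen and 1 fallen (0.442% and 0.0698% of all rows), those of D1 6 and 3 (0.652% and 0.186%) and those of D3 4 and 9 (0.908% and 0.536%). The 1 fall at D0 was that of G2478, a member only through the libraries of D0, so this count says nothing about falls at D0. Among members with a mean of 5 TPM or more outside the compared libraries, 4 rose and 2 fell at D0 and 14 and 74 at D11, and the counts of the other days were as given for all members.

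**Figure D3:**
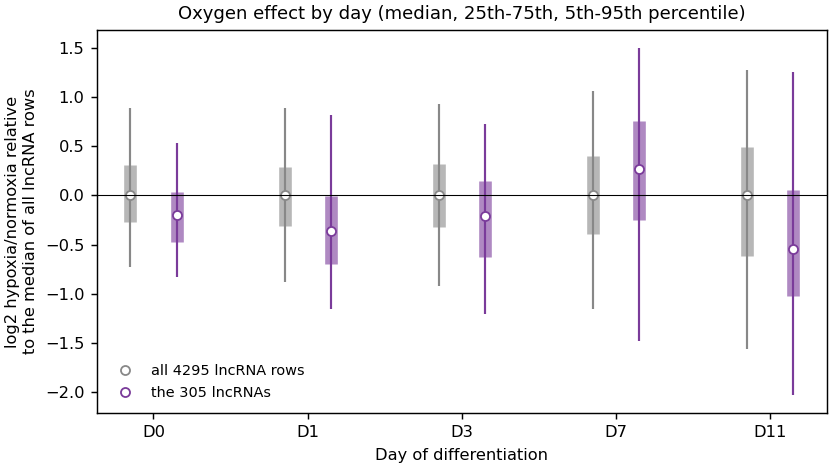
Oxygen effect by day, as log2 hypoxia over normoxia relative to the median of all lncRNA rows, for all 4295 rows (grey) and the 305 lncRNAs (purple). Points are medians, thick bars the 25th to 75th and thin lines the 5th to 95th percentile over transcripts, which are not replicates. The members' median lies at -0.20, -0.36, -0.21, 0.27 and -0.55 from D0 to D11.

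At D7, 40 members rose and 20 fell (2.61% and 3.17% of all rows), with a median of 0.27, and at D11, 15 rose and 74 fell (4.7% and 8.75%), with a median of -0.55. These splits depend on the scale. With no shift subtracted there were 10 rises and 58 falls at D7, against 75 and 14 at D11. Relative to the mRNA median the counts were 17 and 46 at D7 and 36 and 32 at D11, and after quantile normalization 12 and 36 at D7 and 22 and 34 at D11. Held under all 4 scalings were 9 rises and 20 falls at D7 (0.536% and 3.12% of all rows), and 15 rises and 14 falls at D11 (3.7% and 1.84%). Of the 89 members called at D11, 22 had overlapping TPM values in hypoxia and normoxia, and at D7 2 of 60.

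Of the 7 members raised by hypoxia at D0, D1 or D3, 6 had a normoxic mean under 6 TPM on each day of a rise, and the exception was G8103. At D0, 10.8% of all members had a normoxic mean under 6 TPM. The normoxic level is the base of each of these changes, so this count is a description and no test. G13819 was at 2.46 and 2.61 TPM in normoxia at D0 and at 6.55 and 6.85 TPM in hypoxia (1.22 ± 0.19, adjusted p = 0.0045). At D1 its values were 1.27 and 0.923 TPM against 3.31 and 4.08 TPM (1.57 ± 0.19, adjusted p = 0.00039), and at D3 2.54 and 3.06 TPM against 7.33 and 6.92 TPM (1.297 ± 0.19, adjusted p = 0.0013). It was 1 of 2 members that rose at all 3 days and lies 57532 bases from Map2k6, a kinase of the p38 pathway. At D7, with 5.88 and 6.33 TPM in normoxia and 5.47 and 4.79 TPM in hypoxia, no rise was found (0.36 ± 0.19).

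G14819 was the other. Its values were 3.97 and 5.03 TPM in normoxia and 14.5 and 11.9 TPM in hypoxia at D0 (1.39 ± 0.22, adjusted p = 0.0045), 2.74 and 1.99 against 5.91 and 8.09 TPM at D1 (1.43 ± 0.22, adjusted p = 0.0023) and 5.31 and 4.09 against 11.2 and 10.2 TPM at D3 (1.15 ± 0.22, adjusted p = 0.0065). The groups did not overlap at any of the 3 days. G14819 lies on RAZU01000273.1 (163135 to 163606, minus strand), 4494 bases from a further member on the same strand, G14820, which also rose at D1 under all 4 scalings. The nearest mRNA gene, Pdcd2l, is 10393 bases away and was not called at any day.

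G973 was raised at D0, with 6.57 and 7.51 TPM in hypoxia against 1.04 and 2.51 TPM (1.90 ± 0.30, adjusted p = 0.0045), and at D1, with 9.17 and 10.5 against 3.01 and 1.93 TPM (1.88 ± 0.30, adjusted p = 0.0029). G13912 was raised at D0, with 5.89 and 4.80 against 1.3 and 1.42 TPM (1.74 ± 0.27, adjusted p = 0.0045), and at D3, with 8.40 and 10.1 against 1.603 and 3.08 TPM (1.97 ± 0.27, adjusted p = 0.00089). Both also rose with stage in normoxia. Of the neighbours of G973, H2-T23 rose at D1 (1.303) and D3 (1.57). G934, the transcript of the primers above, did not differ at D0, with 7.30 and 6.58 TPM in hypoxia against 5.78 and 7.46 TPM (-0.07 ± 0.21). At D1 it was at 10.6 and 13.6 against 4.81 and 5.53 TPM (1.10 ± 0.21, adjusted p = 0.0074), and at D3 at 13.1 and 15 against 4.79 and 6.94 TPM (1.24 ± 0.21, adjusted p = 0.0034). At D7 it was at 17.2 and 17.0 against 11.7 and 13.5 TPM (1.05 ± 0.21, adjusted p = 0.0035), where the change with no shift subtracted was 0.44. Cdsn, which encodes the cell adhesion protein corneodesmosin, lies 79648 bases from G934. On log2(TPM + 1), the scale of the mRNAs, it had relative log2 changes of 0.60 at D1 and 0.73 at D3, below the fold threshold. The added 1 shrinks changes of low transcripts more than the 0.1 used for lncRNAs. With edgeR, the paper reports both TU2105 and Cdsn as upregulated in hypoxia at D1 and D3.

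Of the 28 members lowered at D0, D1 or D3, 27 had a normoxic mean of 10 TPM or more at D0, as had 67.2% of all members. This level is the base of the falls at D0, so the count is again a description. G12741, which also fell with stage, fell in hypoxia at all of D0, D1, D3 and D11 and was the only member called at 4 days. Its values were 106 and 105 TPM against 246 and 177 TPM at D0 (-1.13 ± 0.19, adjusted p = 0.0079), 28.3 and 29.5 against 54.6 and 64.2 TPM at D1 (-1.13 ± 0.19, adjusted p = 0.0044), and 22.8 and 26.8 against 52.9 and 49.1 TPM at D3 (-1.07 ± 0.19, adjusted p = 0.0051). These falls are near the fold threshold and none held under all 4 scalings. G5682 was at 165 and 193 against 340 and 389 TPM at D0 (-1.17 ± 0.20, adjusted p = 0.0079) and at 69.8 and 60.8 against 160 and 178 TPM at D3 (-1.40 ± 0.20, adjusted p = 0.0011), again not under all 4 scalings. G2478 fell at D0, from 17.6 and 24.8 TPM to 7.62 and 7.89 TPM (-1.57 ± 0.25). Outside the 4 libraries of D0 its mean was 4.81 TPM, so G2478 is a member only through the day of this comparison, and its fall is given as a description, with no test. At D1, G1520 was at 8.25 and 9.78 TPM in hypoxia against 20.8 and 24.7 TPM (-1.42 ± 0.18, adjusted p = 0.00070), and G14443 at 5.10 and 4.81 against 13.03 and 10.7 TPM (-1.33 ± 0.20, adjusted p = 0.0023). At D3 the largest falls were those of G8135, with 4.69 and 4.56 against 22.3 and 21.2 TPM (-2.23 ± 0.25, adjusted p = 0.00027), and of G8645, with 11.6 and 9.16 against 42.2 and 38.6 TPM (-1.99 ± 0.25, adjusted p = 0.00046).

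**Figure D4:**
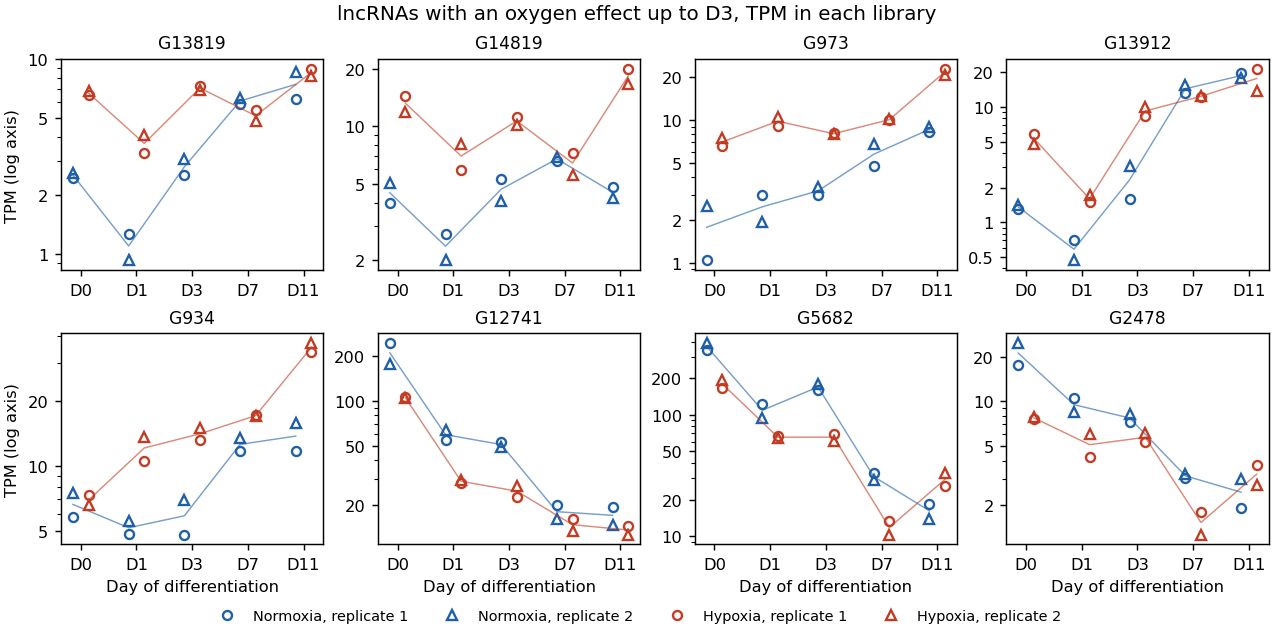
TPM of 8 lncRNAs in each of the 20 libraries (log axis) against the day of differentiation, normoxia in blue and hypoxia in red, circles for replicate 1, triangles for replicate 2 and lines through the group means. In the panels of G13819 and G14819 both red points lie above both blue points at D0, D1 and D3, and in those of G12741 and G5682 below them.

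The early calls were thin in replication. Leaving out any 1 of the 4 libraries of D0 left 0 or 1 rise and no fall (limma, with 40 to 51 members below 0 at an unadjusted p under 0.05), and none of the 7 calls of named members at D0 held in all 4 of these fits. Without the normoxic D1 replicate 2, no member rose or fell at D1 (17 and 95 at an unadjusted p under 0.05). For each of the 8 named calls at D1, leaving out this library ended the call. At D3 the falls of G8135, G8645 and G15361 held without any single library, while the other 8 named calls, rises and falls, did not. Their directions stayed as given in each of these fits.

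At D7 the 2 largest falls, those of G8643 and G8645, belonged to a cluster of members on 1 contig. G8642 to G8645 are 4 members within 3515171 to 3516743 of RAZU01000151.1, in pairs that overlap on opposite strands (G8643 on the minus strand over G8642, and G8645 on the minus strand over G8644). The libraries were strand-specific, but whether quantification used the strand is not given in the sources used here, so the values within a pair may not be independent. G8643 was at 80.7 and 88.5 TPM in normoxia at D7 and at 6.67 and 3.53 TPM in hypoxia (-3.48 ± 0.31, adjusted p = 9.0e-06). G8645 was at 15.8 and 16.1 against 1.90 and 1.27 TPM (-2.67 ± 0.25, adjusted p = 1.2e-05), and G8644 at 64.4 and 84.9 against 10.2 and 6.17 TPM (-2.59 ± 0.26, adjusted p = 2.4e-05). G8642 was at 24.5 and 33.4 against 6.77 and 3.37 TPM and just missed the threshold (-1.95 ± 0.46, adjusted p = 0.011). The nearest named mRNA gene, Chordc1, which encodes an HSP90 co-chaperone, lies 46153 bases from the cluster and was not called (-0.96).

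G6543, the most abundant member of the early days, fell at D7 from 2796 and 3259 TPM to 408 and 254 TPM (-2.62 ± 0.26, adjusted p = 2.6e-05), after 3412 and 3516 against 2509 and 1637 TPM at D3 (-0.80 ± 0.26, adjusted p = 0.095). G15361 fell from 16.5 and 16.5 TPM to 1.97 and 1.56 TPM (-2.56 ± 0.18, adjusted p = 3.8e-06) and G1771 from 12.3 and 11.7 TPM to 3.98 and 2.72 TPM (-1.22 ± 0.17, adjusted p = 0.00027). All of these held without any single library and under the 4 scalings. Over the 20 libraries G15361 and G8645 had nearly the same values, with a TPM ratio of 0.499 to 1.23 and a correlation of 0.995 on the log2 scale. No position was in hand for G15361, and whether the 2 share sequence was not tested.

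Among the members risen at D7, G14401 was at 30.7 and 33.0 TPM in hypoxia against 8.30 and 11.1 TPM (2.33 ± 0.19, adjusted p = 4.4e-06). This transcript spans 8940918 to 9008279 of RAZU01000261.1 on the plus strand and overlaps the end of Pparg (8848571 to 8956248) on the same strand, so reads of the mRNA and the lncRNA could have been divided between them. Pparg itself rose, from 68.0 and 80.5 TPM to 131 and 153 TPM (relative log2 change 1.12). G8103 was at 113 and 89.6 against 34.8 and 37.4 TPM (2.08 ± 0.18, adjusted p = 5.7e-06) and had already risen at D1, with 87.5 and 108 against 36.7 and 38.9 TPM (1.26 ± 0.18, adjusted p = 0.0010). It lies 15876 bases from Hfe, an iron regulator, and 43723 bases from the linker histone gene Hist1h1c (RAZU01000140.1, 10094963 to 10096258, minus strand). G3526 rose from 5.48 and 4.31 TPM to 11.96 and 10.3 TPM (1.79 ± 0.20, adjusted p = 4.7e-05), and lies 22278 bases from the tubulin gene Tuba1c and 31421 bases from Tuba1b. These 3 rises held without any single library. Without the hypoxic D7 replicate 2 the number of risen members was 21, and without replicate 1 it was 43.

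At D11 the largest rises were those of G1771 and G8645. G1771 was at 1.83 and 1.75 TPM in normoxia and at 26.2 and 25.9 TPM in hypoxia (2.79 ± 0.17, adjusted p = 2.2e-07), and G8645 at 0.816 and 1.45 against 15.9 and 14.8 TPM (2.69 ± 0.25, adjusted p = 3.1e-06). G15361 was at 1.63 and 1.71 against 18.1 and 19.8 TPM (2.42 ± 0.18, adjusted p = 6.6e-07). In each the hypoxic values lay more than 10-fold above the normoxic ones. G10254, the transcript that rose from D0 to D1, was at 0.869 and 1.05 against 6.93 and 10.1 TPM (1.99 ± 0.28, adjusted p = 0.00011).

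Several members fell at D11 by more than 3 on the relative log2 scale. G1542 was at 22.8 and 23.02 TPM in normoxia and at 4.62 and 4.06 TPM in hypoxia (-3.38 ± 0.25, adjusted p = 5.9e-07), 54090 bases from Rbpms, which encodes an RNA-binding protein. G14159 (-3.30) and G10266 (-3.11) were next, both named here after their values were seen, and G10266 was at 44.9 and 47.9 against 13.4 and 8.61 TPM (adjusted p = 2.4e-07). G3526 was at 17.8 and 20.6 against 5.64 and 3.95 TPM (-3.01 ± 0.20, adjusted p = 2.4e-07). G14401 fell from 34.6 and 48.1 TPM to 18.8 and 20.1 TPM (-2.08 ± 0.19, adjusted p = 2.7e-06), beside Pparg, which fell from 221 and 294 TPM to 178 and 161 TPM (-1.10). G8135 fell from 1.39 and 2.92 TPM to 0.851 and 1.04 TPM (-2.04 ± 0.25, adjusted p = 5.1e-05). G6078 had a larger fitted fall (-4.46 ± 1.12, adjusted p = 0.0085), but its hypoxic values were 13.1 and 0.644 TPM against 28.2 and 41.6 TPM, and without the hypoxic replicate 2 the call was lost with a value of -2.46, as it was without either normoxic replicate.

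Members that fell at D7 and were called at D11 mostly rose there, and the reverse. The D7 and D11 comparisons share no library. Of the 20 members that fell at D7, 11 rose at D11 and 1 fell, and of the 40 that rose at D7, 11 fell and none rose at D11. Over all lncRNA rows 36.0% of the 136 that fell at D7 rose at D11 and 32.1% of the 112 that rose at D7 fell, so rows outside the members reversed too. Under all 4 scalings 11 of the 20 falls at D7 turned to rises at D11, and 2 of the 9 rises, G14401 and G3526, turned to falls (34.3% and 17.4% over all rows). The difference of the 2 oxygen effects was tested in the same model. Relative to all lncRNA rows, 26 members had a higher effect at D11 than at D7 and 113 a lower one (8.52% and 10% of all rows), and 26 and 13 under all 4 scalings (7.47% and 1.19%). With no shift subtracted the counts were 109 and 13, relative to the mRNA median 69 and 46, and after quantile normalization 45 and 40.

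The largest differences towards a higher effect at D11 were those of G8645 (5.39 ± 0.35, adjusted p = 9.4e-08), G15361 (5.01 ± 0.26, adjusted p = 1.5e-08) and G8643 (4.09 ± 0.44, adjusted p = 1.2e-05). Towards a lower effect they were those of G3526 (-4.76 ± 0.28, adjusted p = 4.7e-08), G1542 (-4.73 ± 0.35, adjusted p = 4.1e-07) and G14401 (-4.37 ± 0.26, adjusted p = 4.7e-08). All 6 held without any single library and under the 4 scalings. They hold for the D11 labels as given, at which none of the 9 HIF targets rose, 3 fell and 3 others were higher in TPM in both hypoxic libraries, and the part of the labels was not tested. In a fit without the D11 libraries the D7 counts were 40 risen and 22 fallen.

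**Figure D5:**
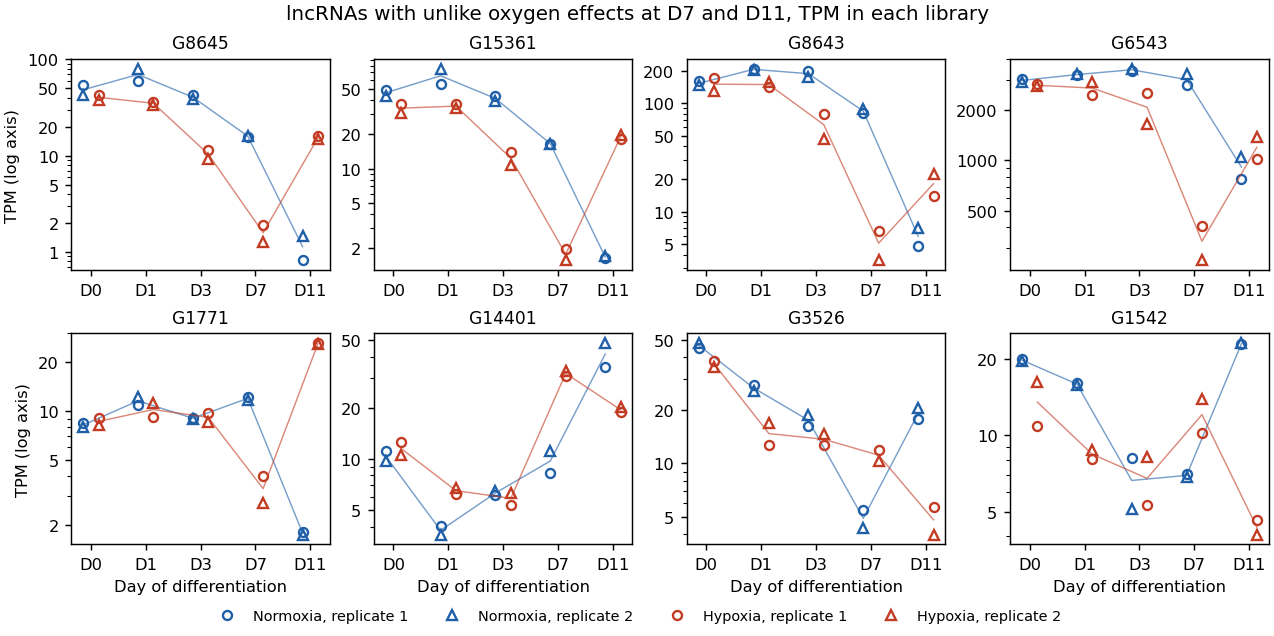
TPM of 8 lncRNAs in each of the 20 libraries (log axis) against the day of differentiation, normoxia in blue and hypoxia in red, circles for replicate 1, triangles for replicate 2 and lines through the group means. For G8645, G15361, G8643 and G1771 the red points lie below the blue at D7 and above them at D11, and for G14401, G3526 and G1542 above them at D7 and below them at D11.

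The mRNA genes within 100 kb moved with few of the called members. There were 112 pairs of a called member and a listed neighbour at D7, of which 1 neighbour was called in the same and 1 in the opposite direction (1.3% of all mRNAs rose and 2.39% fell). At D11 there were 171 pairs, with 21 neighbours in the same and 11 in the opposite direction (4.53% and 8.73%). At D0 and D3 no neighbour of a called member was called, in 18 and 31 pairs, and at D1 1 was, in the same direction, in 34 pairs. Members of 1 contig share neighbours, so the pairs are not independent, and members and neighbours were measured in the same libraries. Members were called relative to the lncRNA median and neighbours relative to the mRNA median, so which directions match depends on the scale. The D11 list of neighbours was at hand only in part.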

How the data were processed

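Ribosome-depleted, strand-specific libraries were read out as 20 samples. Per the submitters' notes and the study's methods, the authors used CASAVA 1.8.2, mapped reads with STAR 2.6.0c (genome CriGri-PICR), assembled transcripts, removed those with coding potential, and quantified with kallisto 0.44.0. The deposited values are TPM, and the lncRNA table lists transcripts above 0.1 TPM. TPM keeps no depth, so the reads behind a value are unknown and no count test was run.

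Log2(TPM + 0.1) of 4295 lncRNAs and log2(TPM + 1) of 10318 mRNAs were each fitted with limma 3.58.1 (R 4.3.3, eBayes with trend) to 10 group means, leaving 10 residual degrees of freedom. The median change of all rows was subtracted, and p-values were adjusted by Benjamini-Hochberg over all rows. Limits were an adjusted p of 0.01 (lncRNA) or 0.05 (mRNA) and a relative log2 change of 1. The procedure was tested on simulated data. Named members are the highest in mean TPM, the most changed in each comparison, those changed at D0, D1 and D3 alike, the one with primers and the least variable. Members and lists were chosen with earlier results of these data known. Alternatives were other pseudocounts, scalings, filters, member limits and thresholds, a replicate block, fits of the compared groups alone, and leaving out each library. A crossed block, a fit without D11 and the count under 4 scalings were added after seeing the data. Columns of the study's own comparisons were not used. Figures were drawn with matplotlib 3.10.9 (Python 3.11.15).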

Additional observations from a re-analysis of the deposited data

Results flagged for a closer look

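On the scale relative to all lncRNA rows, the oxygen effect differed between D7 and D11 in 20 named lncRNAs, by the test of the difference itself (relative log2 effect at D11 minus that at D7, limma). It was higher at D11 for G8645 (5.39), G15361 (5.01), G8643 (4.09), G1771 (4.04), G2473 (2.53), G10254 (2.04) and G6543 (2.03). It was lower at D11 for G3526 (-4.76), G1542 (-4.73), G14401 (-4.37), G8103 (-2.64), G10594 (-2.27), G8697 (-2.22), G12741 (-1.62), G13340 (-1.59), G14170 (-1.51), G13912 (-1.49), G16740 (-1.34), G13819 (-1.12) and G9352 (-1.06). The calls of G9352, G13912, G13819, G13340, G16740 and G14170 were lost without at least 1 library, and the other 14 were kept. Under all 4 scalings 11 of the 20 were called, and the 9 others were G10594, G8697, G12741, G13340, G14170, G13912, G16740, G13819 and G9352. With no shift subtracted the values of G9352 (0.53), G13912 (0.10), G13819 (0.47), G16740 (0.25) and G14170 (0.0766) had the opposite sign, so the direction of these 5 depends on the scale. All hold for the D11 labels as given, at which 3 of 9 HIF targets fell in hypoxia and none rose, and the part of the labels in these differences was not tested.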

How the results depend on the processing

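The direction splits at D7, at D11 and in the difference between their oxygen effects depend on the scale, with 2 libraries a group, and the calls of D0 to D3 depend on single libraries. The cause of these changes was not tested. Counts below are members risen, then fallen. With a pseudocount of 1 they were 13 and 31 for hypoxia at D7, 35 and 29 at D11 and 59 and 40 for the difference between these days, and 7 fell from D1 to D3. With no shift subtracted, 1 fell at D0 and 8 at D1 in hypoxia, with 10 and 58 at D7, 75 and 14 at D11 and 109 and 13 for the difference, and by stage 8 fell from D1 to D3, 10 rose from D3 to D7 and 53 from D7 to D11. Relative to the mRNA median, 1 fell at D0, with 11 and 5 at D1, 7 risen at D3, 17 and 46 at D7, 36 and 32 at D11 and 69 and 46 for the difference, and by stage 5 and 8 from D0 to D1, 16 and 26 from D3 to D7 and 52 risen from D7 to D11. After quantile normalization, 1 fell at D0, with 15 and 3 at D1, 12 risen at D3, 12 and 36 at D7, 34 fallen at D11 and 45 and 40 for the difference, and by stage 8 risen from D0 to D1, 14 risen from D1 to D3, 18 and 29 from D3 to D7 and 21 and 41 from D7 to D11. Among rows with a mean of 1 TPM or more, 7 rose at D3 in hypoxia and 11 from D3 to D7.

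With an adjusted p of 0.05 and no fold limit, hypoxia gave 8 fallen at D0, 14 and 52 at D1, 15 and 49 at D3, 81 and 40 at D7 and 27 and 136 at D11. The stages gave 10 and 44 from D0 to D1, 16 and 18 from D1 to D3, 20 and 84 from D3 to D7, 125 and 33 from D7 to D11 and 85 risen from D0 to D11. In limma fits of the compared groups alone, 0 and 0 passed at each of the 5 oxygen days, where an unadjusted p under 0.05 was reached by 24 and 85 members at D0, by 21 and 108 at D1, 29 and 101 at D3, 101 and 42 at D7 and 34 and 131 at D11. The same fits gave 0 and 0 from D0 to D1 (43 and 85 unadjusted) and from D1 to D3 (38 and 66), 0 and 7 from D3 to D7 (32 risen unadjusted), 6 and 3 from D7 to D11, 24 and 26 from D0 to D11 and 16 and 56 for the difference. With the replicate number as a block in limma, 0 and 0 passed at D0 (15 and 67 unadjusted), 0 and 1 at D1 (20 risen unadjusted) and 1 and 4 at D3, against 33 and 20 at D7, 13 and 72 at D11 and 25 and 96 for the difference. Same-numbered libraries did not deviate together (correlations of -0.14 to 0.14), which cannot exclude that the numbers pair the samples. With the D7 numbers crossed, added after seeing the data, 34 and 22 passed. The number of members was 169 with a limit of 10 TPM and 703 with one of 2 TPM. In a fit without the D11 libraries, also added later, hypoxia at D0 gave 4 and 4, at D1 5 and 15, at D3 3 and 20 and at D7 40 and 22.

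Without 1 library, risen and fallen ranged from 0 to 1 and 0 to 0 at D0, 0 to 3 and 0 to 3 at D1, 0 to 3 and 5 to 13 at D3, 21 to 43 and 17 to 29 at D7, 10 to 16 and 64 to 77 at D11, and 23 to 27 and 93 to 109 for the difference. By stage they ranged from 2 to 2 and 3 to 8 (D0 to D1), 4 to 7 and 1 to 3 (D1 to D3), 1 to 2 and 19 to 25 (D3 to D7), 66 to 85 and 12 to 18 (D7 to D11) and 48 to 54 and 65 to 73 (D0 to D11). Of 146 calls of named members, 118 were still called with no shift subtracted, 116 relative to the mRNA median and 112 after quantile normalization. Another 23, 30 and 30 kept their direction but no longer passed the limits. Reversed were, with no shift, the differences between D11 and D7 of G9352 (0.53), G13912 (0.10), G13819 (0.47), G16740 (0.25) and G14170 (0.0766), and after quantile normalization the change from D7 to D11 of G5730 (-0.31), G8697 (-0.94) and G9352 (-0.91) and the difference of G9352 (0.29).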
